A study of Homo sapiens with 6 samples.

Results

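The 9 genes described here act in the display of peptides by HLA class I molecules, in the control of HLA genes, or, in the case of GBP2, among interferon-induced GTPases. They were chosen by name in the deposited table, which holds 22152 rows: HLA-B, HLA-C, B2M, TAP1, TAP2, TAPBP, CIITA, NLRC5 and GBP2. RNA was measured in HaCaT cells, a human keratinocyte line that became immortal without a transforming agent, 48 h after transfection with 1 nM of a synthetic RNA. In 3 libraries this was a negative control mimic (NC mimic) and in 3 it was a mimic of miR-21-3p, the passenger strand of the miR-21 precursor. The labels describe the libraries of each group as biological replicates of a single cell line, and all of them were made from polyadenylated RNA. The level of the mimic inside the cells was not analysed here.

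Class I molecules carry peptides from inside the cell to its surface, where cytotoxic T cells and natural killer cells inspect them. The heavy chain pairs with beta-2-microglobulin, and the TAP transporter brings peptides from the cytosol into the endoplasmic reticulum, where tapasin helps load them. NLRC5 and CIITA are transcriptional regulators of class I and class II genes, respectively, and interferon gamma raises many genes of this pathway, in keratinocytes as in other cells.

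The reads assigned to genes came to about 24400000 to 28000000 per library, an estimate, since the deposited values carry at most 3 significant digits. Values are normalised read counts, that is, reads divided by a size factor of the library. All 10 keratinocyte markers listed were above 0 in every library; KRT5 lay between 123000 and 139000. KRT15, which fell by 0.33 on the log2 scale (limma adjusted p = 0.0104), and ITGB4 were the 2 of these markers that passed the test. Of the 13 leukocyte and antigen-presenting cell markers listed, 2 had a row, CD14 and CD80, and their summed value was 122, 112 and 113 with NC mimic and 141, 151 and 125 with miR-21-3p mimic. Neither passed the test; the most abundant, CD14, lay between 58.7 and 92.2. The other leukocyte markers, among them PTPRC, were not analysed here. Of the 6 fibroblast markers listed, 1 had a row, COL1A1. It had values of 560, 390 and 478 with NC mimic and 372, 378 and 364 with miR-21-3p mimic, with a limma adjusted p of 0.0641. The endothelial marker VWF lay between 712 and 801 (limma adjusted p = 0.893). The melanocyte markers MITF and PMEL lay between 441 and 512 (limma adjusted p = 0.218) and between 120 and 155 (limma adjusted p = 0.744). The part of other cells in the results was not tested, and in bulk RNA fewer cells of a type and less RNA per cell cannot be told apart.

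The libraries of the groups separated on the first principal component (46.7% of the variance), with NC mimic replicate 2 nearest to the other group. It lay at -1.95 on that axis, against -21.25 and -13.34 for NC mimic replicates 1 and 3 and 6.86 to 17.85 for the miR-21-3p mimic libraries. Its correlation over genes with NC mimic replicate 1 was 0.9939 (Pearson, log2 values), below its 0.9944 to 0.9952 with the miR-21-3p mimic libraries, while that with NC mimic replicate 3 was 0.9956. Calls that changed when it was left out are given with each gene.

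CIITA, TAPBP and GBP2 were lower with miR-21-3p mimic, and the other 6 genes did not pass the test. The test was limma on log2(value + 1) with a prior variance that follows the mean level, over the 14795 genes with a value of at least 10 in at least 3 libraries, and a gene was called at a Benjamini-Hochberg adjusted p under 0.05. It called 1593 genes, or 10.8% of those tested, of which 689 were lower (4.66%) and 904 higher (6.11%) with miR-21-3p mimic. Of the 9 genes, 3 were called, all of them lower. The choice of prior decided most of these calls. With a constant prior variance, which the planned test allowed equally, limma called 50 genes (0.338%), and CIITA alone among the 9. The counts also turned on single libraries: limma called 2957 genes without NC mimic replicate 2, 542 without NC mimic replicate 1, 176 without NC mimic replicate 3, 277 without miR-21-3p mimic replicate 1, 365 without miR-21-3p mimic replicate 3 and 1541 without miR-21-3p mimic replicate 2. Of the 9 genes, 4 were called without replicate 2 of either group and 1, CIITA, when any of the other 4 libraries was left out. HLA-C, B2M, TAP1, the row named TAP2 and NLRC5 were called in none of these fits. The median log2 fold change of the 9 was -0.144, against 0.0044 over all genes tested. Because the 9 were chosen with earlier results of these data known, this gap and their share of calls give no test of the group.

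**Figure D1:**
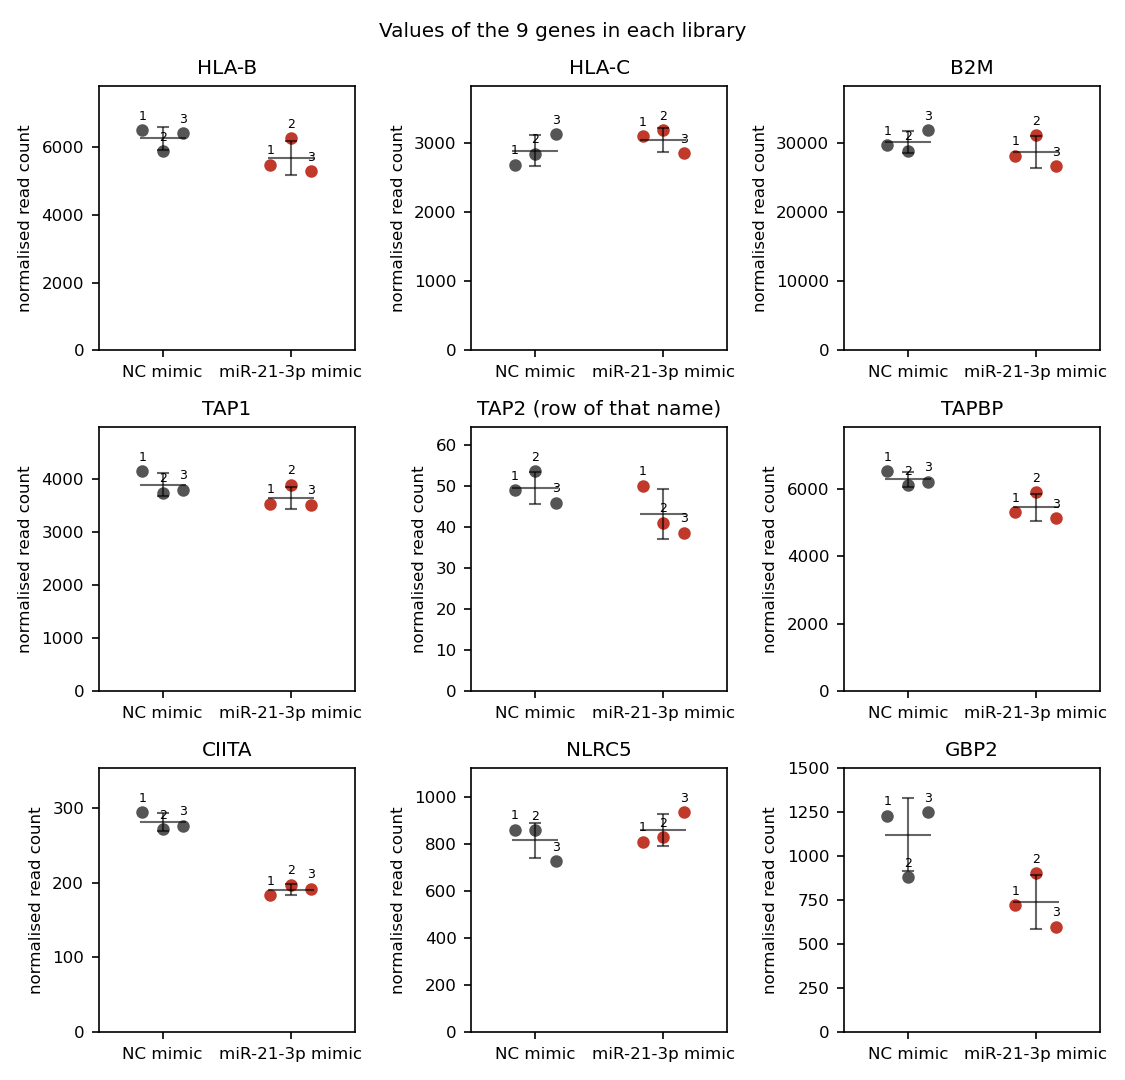
Normalised read count (vertical axes, from 0) of each of the 9 genes in the 3 NC mimic (grey) and 3 miR-21-3p mimic (red) libraries, numbered by replicate, with the mean and SD as bars. The groups do not overlap for CIITA and TAPBP, and GBP2 overlaps through replicate 2 of both groups.

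CIITA, the master regulator of HLA class II genes, had values of 294, 271 and 276 in NC mimic replicates 1 to 3 and 183, 197 and 192 in the miR-21-3p mimic libraries. All 3 miR-21-3p mimic libraries were below all 3 NC mimic libraries. The mean was 280 ± 12.1 (SD, n = 3) with NC mimic and 191 ± 7.09 (SD, n = 3) with miR-21-3p mimic. CIITA fell by 0.55 on the log2 scale (SE 0.09, 95% interval -0.75 to -0.36, limma adjusted p = 0.00546), a change of -31.9%. It was the only one of the 9 called in each of the 23 alternative fits, with adjusted p between 0.000381 (DESeq2) and 0.0438 (edgeR without miR-21-3p mimic replicate 1), and its adjusted p was 0.0411 with a constant prior variance. Without NC mimic replicate 2 it was 0.0016.

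NLRC5, the corresponding regulator of class I genes, had values of 860, 857 and 727 with NC mimic and 810, 829 and 935 with miR-21-3p mimic. NC mimic replicate 3 was the lowest library and miR-21-3p mimic replicate 3 the highest, but NC mimic replicates 1 and 2 were above miR-21-3p mimic replicates 1 and 2, so the groups overlapped. The log2 fold change was 0.08 (95% interval -0.10 to 0.25, limma adjusted p = 0.565), and leaving out a library it ranged from -0.0037 (without NC mimic replicate 3) to 0.12 (without NC mimic replicate 1).

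TAPBP encodes tapasin, which bridges the TAP transporter and empty class I molecules. Its values were 6520, 6100 and 6200 with NC mimic and 5310, 5900 and 5130 with miR-21-3p mimic. The groups did not overlap, although miR-21-3p mimic replicate 2 came close to NC mimic replicate 2. TAPBP fell by 0.21 on the log2 scale (SE 0.05, 95% interval -0.33 to -0.09, limma adjusted p = 0.0345). This call depended on the fit: the adjusted p was 0.141 with a constant prior variance, and 0.113, 0.11, 0.141 and 0.132 without NC mimic replicate 1, NC mimic replicate 3, miR-21-3p mimic replicate 1 and miR-21-3p mimic replicate 3. With the replicate number as a block it was 0.0539 in limma and 0.0568 in edgeR, also without a call. It was 0.0144 in limma without NC mimic replicate 2. CIITA and TAPBP were thus the 2 genes of the 9 with every miR-21-3p mimic library below every NC mimic library, an arrangement found in 14.8% of all genes tested; none of the 9 had the opposite arrangement, found in 16.5%.

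TAP1, one chain of the peptide transporter, had values of 4140, 3730 and 3790 with NC mimic and 3530, 3880 and 3510 with miR-21-3p mimic. The groups overlapped, with miR-21-3p mimic replicate 2 above NC mimic replicates 2 and 3. The log2 fold change was -0.09 (95% interval -0.21 to 0.03, limma adjusted p = 0.283), and it ranged from -0.14 without miR-21-3p mimic replicate 2 to -0.05 without NC mimic replicate 1. The row named TAP2, after the other chain, carried the gene identifier of a locus that overlaps both TAP2 and HLA-DOB in GENCODE 29, and the identifier of TAP2 itself was not analysed here. That row had values of 49, 53.6 and 45.9 with NC mimic and 50, 41 and 38.6 with miR-21-3p mimic. Its log2 fold change was -0.20 with a wide interval (-0.57 to 0.18, limma adjusted p = 0.484), and it ranged from -0.31 without miR-21-3p mimic replicate 1 to -0.12 without miR-21-3p mimic replicate 3.

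HLA-B, a class I heavy chain, had values of 6490, 5860 and 6400 with NC mimic and 5470, 6250 and 5280 with miR-21-3p mimic. Replicate 2 was the lowest NC mimic library and the highest miR-21-3p mimic library, and the groups overlapped through them. The log2 fold change was -0.14 (SE 0.06, 95% interval -0.28 to -0.01, limma adjusted p = 0.157), and it ranged from -0.22 without miR-21-3p mimic replicate 2 to -0.09 without miR-21-3p mimic replicate 3. The adjusted p passed the threshold without NC mimic replicate 2 (0.0446) or without miR-21-3p mimic replicate 2 (0.0345); HLA-B stayed uncalled in 19 of the 23 alternatives, with adjusted p up to 0.436. HLA-C, another heavy chain, had values of 2680, 2840 and 3120 with NC mimic and 3090, 3180 and 2850 with miR-21-3p mimic. The groups overlapped, and the log2 fold change was 0.08 (95% interval -0.05 to 0.21, limma adjusted p = 0.424). It ranged from 0.03 without NC mimic replicate 1 to 0.14 without NC mimic replicate 3. The ratio of HLA-B to HLA-C within a library was 2.42, 2.06 and 2.05 with NC mimic and 1.77, 1.97 and 1.85 with miR-21-3p mimic; this ratio was formed after the values were seen, and its difference was not tested. HLA class I genes share much of their sequence and vary between people, so reads of HLA-B and HLA-C may have been assigned to each other, and how the counting treated such reads is not given in the sources used here.

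B2M, the invariant light chain of all class I molecules, had values of 29600, 28800 and 31800 with NC mimic and 28100, 31100 and 26600 with miR-21-3p mimic. The groups overlapped, with miR-21-3p mimic replicate 2 above NC mimic replicates 1 and 2. The log2 fold change was -0.07 (95% interval -0.21 to 0.06, limma adjusted p = 0.468), and it ranged from -0.14 without miR-21-3p mimic replicate 2 to -0.02 without miR-21-3p mimic replicate 3.

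GBP2, an interferon-induced GTPase that acts against intracellular pathogens, had values of 1230, 882 and 1250 with NC mimic and 723, 902 and 599 with miR-21-3p mimic. NC mimic replicates 1 and 3 were above all miR-21-3p mimic libraries, but NC mimic replicate 2 was below miR-21-3p mimic replicate 2, so the groups overlapped. The mean was 1120 ± 207 (SD, n = 3) with NC mimic and 741 ± 152 (SD, n = 3) with miR-21-3p mimic. GBP2 fell by 0.60 on the log2 scale (SE 0.14, 95% interval -0.91 to -0.28, limma adjusted p = 0.0235). The adjusted p was 0.0689 with DESeq2 and 0.134 in limma with a constant prior variance, both without a call. It was also lost without NC mimic replicate 1 (0.0942), NC mimic replicate 3 (0.111), miR-21-3p mimic replicate 1 (0.0895) or miR-21-3p mimic replicate 3 (0.0904), and was 0.000456 without NC mimic replicate 2.

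**Figure D2:**
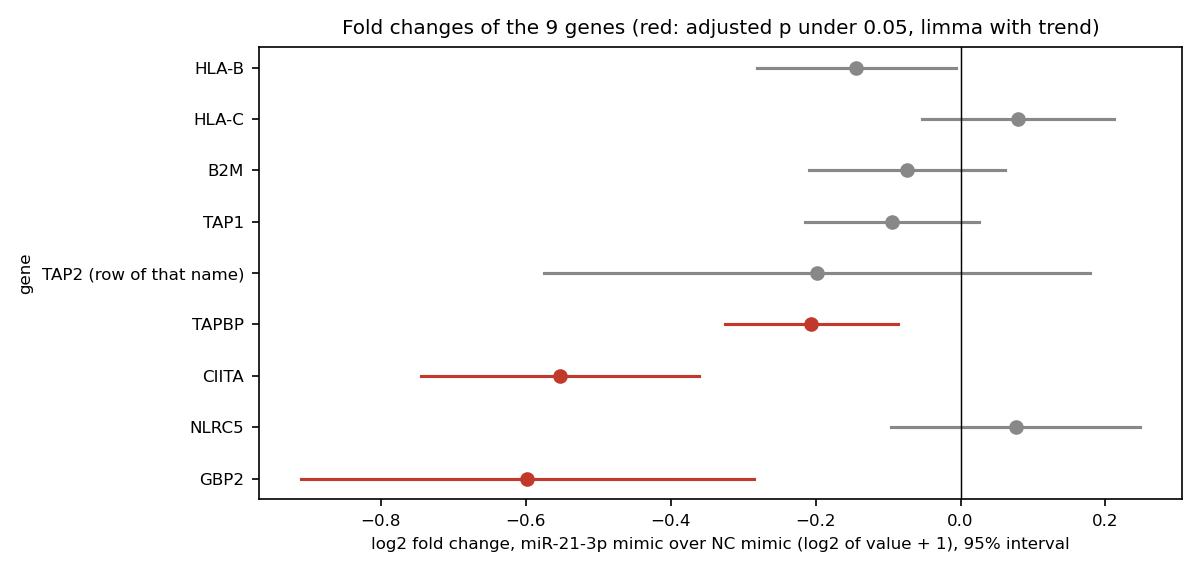
Log2 fold change of miR-21-3p mimic over NC mimic on the log2(value + 1) scale (horizontal axis) for the 9 genes, with 95% intervals from limma. CIITA, TAPBP and GBP2 (red) passed the threshold of 0.05; the row named TAP2 has a wide interval, from -0.57 to 0.18.

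**Figure D3:**
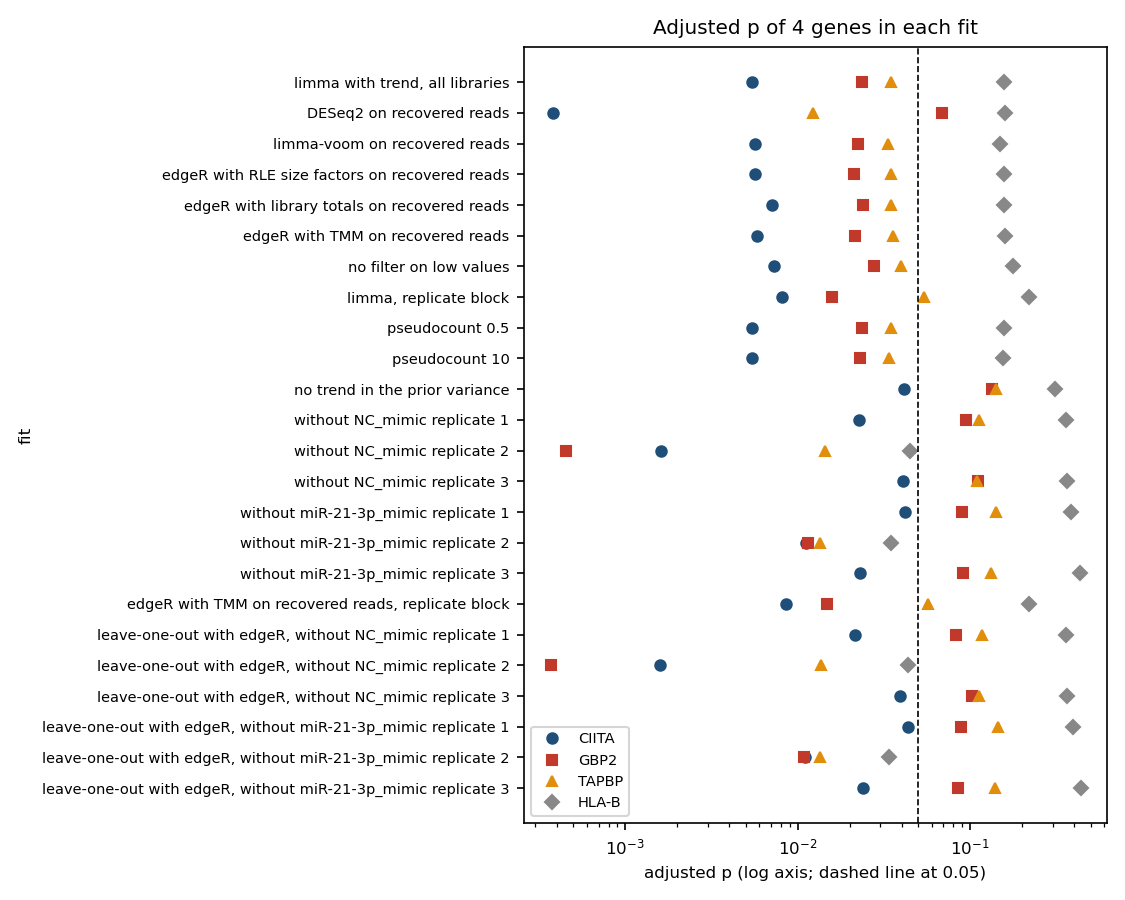
Adjusted p (horizontal axis, log scale, dashed line at 0.05) of CIITA, GBP2, TAPBP and HLA-B in the reported fit (top) and in each of 23 alternatives (vertical axis). CIITA lies below 0.05 in every fit shown; GBP2 and TAPBP lie above it with a constant prior variance and when any of 4 libraries is left out.

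Promoter sequences from RefSeq (GRCh38.p14, 250 bases before to 50 after the start) were matched by symbol for 6 of the 9 genes, among them TAP2, whose own transcript was not analysed here. They are shown for TAPBP, the called gene that has one, and for HLA-B and HLA-C. The log2 fold changes of HLA-B and HLA-C differed in sign, but neither gene was called and their difference was not tested. Capitals mark exact matches on either strand to GAAANNGAA (ISRE-type), TTCNNNGAA (GAS-type), TGACG (CRE core), CCAAT or GGGNNTTCC (NF-kB-type), and matches may overlap. The windows lie on the minus strand at chr6:33314029-33314328 for TAPBP, chr6:31357130-31357429 for HLA-B and chr6:31272043-31272342 for HLA-C.
TAPBP: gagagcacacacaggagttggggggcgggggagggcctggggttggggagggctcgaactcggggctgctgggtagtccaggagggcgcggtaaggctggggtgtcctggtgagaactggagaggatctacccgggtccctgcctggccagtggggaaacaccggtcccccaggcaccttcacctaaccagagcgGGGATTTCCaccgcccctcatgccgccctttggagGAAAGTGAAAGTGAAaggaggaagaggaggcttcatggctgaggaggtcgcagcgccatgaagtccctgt
HLA-B: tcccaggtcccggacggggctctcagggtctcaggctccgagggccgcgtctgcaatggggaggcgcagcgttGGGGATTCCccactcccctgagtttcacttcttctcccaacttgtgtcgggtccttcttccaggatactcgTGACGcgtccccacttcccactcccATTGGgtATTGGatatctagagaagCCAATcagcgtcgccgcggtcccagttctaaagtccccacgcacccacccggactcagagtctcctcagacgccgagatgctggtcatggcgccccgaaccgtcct
HLA-C: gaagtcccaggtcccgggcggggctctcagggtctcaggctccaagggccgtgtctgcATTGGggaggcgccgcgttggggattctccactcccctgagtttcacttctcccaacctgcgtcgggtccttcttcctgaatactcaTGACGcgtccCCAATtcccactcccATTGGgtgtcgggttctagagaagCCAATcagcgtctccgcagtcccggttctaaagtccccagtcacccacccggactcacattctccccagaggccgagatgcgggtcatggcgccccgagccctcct
The TAPBP window held 2 overlapping ISRE-type matches and 1 NF-kB-type match. The HLA-B window held 1 CRE core, 3 CCAAT and 1 NF-kB-type match, and the HLA-C window 1 CRE core and 4 CCAAT matches. Of the genes that were not called, B2M (2 matches) and 1 of the 2 windows of TAP1 (2) also held ISRE-type letters, and B2M held 1 NF-kB-type match, so these matches did not set TAPBP apart. Aligned end to end, the HLA-B and HLA-C windows were identical at 88.5% of positions. Over all 35116 promoters in the table, 8.11% held the ISRE-type letters, 7.66% the GAS-type, 24.6% the CRE core, 34.6% CCAAT and 6.58% the NF-kB-type. A match describes the letters in the window and shows no binding. Only exact letters were searched, so a window without a match may still hold a variant of them.

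Genes around this pathway were described in 7 lists of 94 names, of which 67 had a row and were tested. Of these, 6 were called lower and 5 higher. Each of the 11 calls was lost with a constant prior variance, where their adjusted p lay between 0.0583 (CTSS) and 0.173 (HSPA5). Counts and medians for a list are to be read beside the 4.66% lower, 6.11% higher and median of 0.0044 over all genes.

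Among other class I and class I-like genes, 1 of 11 was called, and the list median log2 fold change was -0.062. MR1, which presents microbial vitamin metabolites, had values of 3020, 2840 and 3140 with NC mimic and 2540, 2690 and 2340 with miR-21-3p mimic, without overlap. It fell by 0.25 on the log2 scale (limma adjusted p = 0.021), and the call was lost without NC mimic replicate 1 (0.0627), NC mimic replicate 3 (0.109), miR-21-3p mimic replicate 1 (0.0815) or miR-21-3p mimic replicate 3 (0.0856). The nonclassical heavy chain HLA-E had a log2 fold change of -0.20 (limma adjusted p = 0.0967), with 0.0116 without NC mimic replicate 2 and 0.0224 without miR-21-3p mimic replicate 2, and it stayed uncalled in 19 of the 23 alternatives (up to 0.306). For HLA-F it was -0.14 (limma adjusted p = 0.162), with an edgeR adjusted p of 0.0445 without NC mimic replicate 2, and it stayed uncalled in the other 22 alternatives (up to 0.44).

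Among genes of peptide supply and loading, 3 of 15 were called higher and 1 lower, with a median of 0.004. PDIA3, the ERp57 oxidoreductase of the loading complex, had values of 3620, 4330 and 4060 with NC mimic and 4700, 4600 and 4740 with miR-21-3p mimic, without overlap. It rose by 0.23 (limma adjusted p = 0.0304). The cytosolic peptidase THOP1 rose by 0.26 (limma adjusted p = 0.0349), and the endoplasmic reticulum chaperone HSPA5 rose by 0.27 (limma adjusted p = 0.0461). PSMB10, a catalytic subunit of the immunoproteasome, had values of 1380, 1400 and 1350 with NC mimic and 1140, 1280 and 1200 with miR-21-3p mimic, and fell by 0.19 (limma adjusted p = 0.0461). All 4 calls were lost in limma without NC mimic replicate 1, NC mimic replicate 3, miR-21-3p mimic replicate 1 or miR-21-3p mimic replicate 3. In that order the adjusted p was 0.0832, 0.096, 0.113 and 0.0987 for PDIA3. It was 0.0853, 0.155, 0.109 and 0.137 for THOP1. For HSPA5 it was 0.158, 0.13, 0.134 and 0.164. For PSMB10 it was 0.106, 0.123, 0.198 and 0.127, and 0.0583 without NC mimic replicate 2. With the replicate number as a block, the limma adjusted p was 0.0565 for THOP1 and 0.0857 for PSMB10. In edgeR with that block it was 0.0565 for THOP1 and 0.0754 for PSMB10. Among all alternatives HSPA5 (0.0501 to 0.0546 in edgeR with TMM, RLE and library totals) and PSMB10 were the calls lost most often along with STAT2. The lectin chaperones CANX and CALR had log2 fold changes of 0.0043 (limma adjusted p = 0.965) and 0.18 (limma adjusted p = 0.155), with a sign for CANX that differed between fits. Leaving out a library moved the log2 fold change of CALR from 0.10 without NC mimic replicate 1 (limma adjusted p = 0.464) to 0.29 without NC mimic replicate 2 (0.004), and CALR stayed uncalled in 21 of the 23 alternatives. The translocon subunit SEC61A1 had a log2 fold change of 0.13 (limma adjusted p = 0.118), and it stayed uncalled in 22 of the 23 alternatives (up to 0.412), the exception being limma without NC mimic replicate 2 (0.0414).

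Of the 14 genes listed for class II and its loading, 3 had a row, and the others, among them CD74, were not analysed here. CTSS, the cysteine protease cathepsin S that trims the invariant chain, had values of 514, 538 and 581 with NC mimic and 357, 404 and 339 with miR-21-3p mimic. The groups did not overlap, and CTSS fell by 0.57 (SE 0.08, limma adjusted p = 0.00403). This call was kept without each library in turn. HLA-DMA, which edits class II peptides, had values of 344, 276 and 306 with NC mimic and 250, 240 and 249 with miR-21-3p mimic, also without overlap. Its log2 fold change was -0.32 with a limma adjusted p of 0.0507, and HLA-DMA stayed uncalled in 19 of the 23 alternatives. The adjusted p was 0.0559 with DESeq2, 0.0489 in edgeR with TMM, 0.0484 with RLE size factors and 0.0573 with library totals, and 0.106 in limma with a constant prior variance. It was 0.0115 without NC mimic replicate 2 and 0.101 to 0.171 without each other library. For the class II chain HLA-DQB1 the log2 fold change was -0.25 (limma adjusted p = 0.0715).

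None of the 8 factors that bind HLA promoters was called by limma, edgeR or DESeq2, none had an unadjusted p under 0.05 in any of these with all libraries, and their median was -0.012. RFX5, a subunit of the RFX complex, had a log2 fold change of -0.06 (limma adjusted p = 0.338). It was -0.13 for the CCAAT-binding subunit NFYC (limma adjusted p = 0.207) and -0.02 for CREB1 (limma adjusted p = 0.86).

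Among genes of interferon gamma signalling 1 of 11 was called, and the median was -0.103. STAT2, which acts mainly in type I interferon signalling, had values of 4220, 4090 and 4170 with NC mimic and 3640, 3770 and 3780 with miR-21-3p mimic, without overlap. It fell by 0.16 (limma adjusted p = 0.0347). The call was lost without NC mimic replicate 1 (0.088), NC mimic replicate 3 (0.129), and miR-21-3p mimic replicates 1 (0.153), 2 (0.0523) and 3 (0.0839). It was also lost with the replicate number as a block (adjusted p 0.103 in limma and 0.1 in edgeR). For the transcription factor IRF1 the log2 fold change was -0.15 (limma adjusted p = 0.107), with 0.024 without miR-21-3p mimic replicate 2, and it stayed uncalled in 21 of the 23 alternatives (up to 0.334). For PIAS1, a SUMO ligase that dampens cytokine signalling, it was 0.04 (limma adjusted p = 0.58).

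In the family of GBP2, 1 of 4 other members with a row was called, in the opposite direction to GBP2. GBP6 had values of 969, 1100 and 1060 with NC mimic and 1390, 1370 and 1340 with miR-21-3p mimic. The groups did not overlap, and GBP6 rose by 0.39 (SE 0.06, limma adjusted p = 0.00431), a call kept without each library in turn and lost with a constant prior variance (0.0675). The ratio of GBP2 to GBP6 within a library was 1.27, 0.802 and 1.18 with NC mimic and 0.52, 0.658 and 0.447 with miR-21-3p mimic; it was formed after the values were seen, and its difference was not tested. GBP4 had values of 1420, 1360 and 1560 with NC mimic and 1190, 1390 and 1150 with miR-21-3p mimic. Its log2 fold change was -0.22 (limma adjusted p = 0.0772), with 0.0246 without NC mimic replicate 2 and 0.0218 without miR-21-3p mimic replicate 2, and it stayed uncalled in 19 of the 23 alternatives (up to 0.277). GBP3 (0.03, limma adjusted p = 0.811) and GBP1 (0.12, limma adjusted p = 0.555) did not pass, and both changed sign when single libraries were left out. GBP proteins are similar in sequence, and reads may have been shared between their genes.

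Among interferon gamma induced genes 2 of 15 were called lower and 1 higher, with a median of -0.079. TRIM22, an antiviral ubiquitin ligase, had values of 2900, 2980 and 3120 with NC mimic and 2010, 2430 and 2010 with miR-21-3p mimic. The groups did not overlap, TRIM22 fell by 0.49 (SE 0.07, limma adjusted p = 0.00357), and the call was kept without each library in turn. The complement protease C1R had values of 181, 150 and 191 with NC mimic and 111, 115 and 103 with miR-21-3p mimic. It fell by 0.66 (limma adjusted p = 0.00959), and the adjusted p was 0.0636 without NC mimic replicate 3. WARS, the tryptophanyl-tRNA synthetase, rose by 0.19 (limma adjusted p = 0.0291). That call was lost without NC mimic replicate 1 (0.0902), NC mimic replicate 3 (0.0994), miR-21-3p mimic replicate 1 (0.0732) or miR-21-3p mimic replicate 3 (0.117). The replicate number as a block also ended it (adjusted p 0.0541 in limma and 0.0612 in edgeR). DTX3L and its partner PARP9 had log2 fold changes of -0.11 (limma adjusted p = 0.131) and 0.03 (limma adjusted p = 0.757), and NMI had one of 0.0045 (limma adjusted p = 0.969). The signs of PARP9 and NMI differed between fits.

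**Figure D4:**
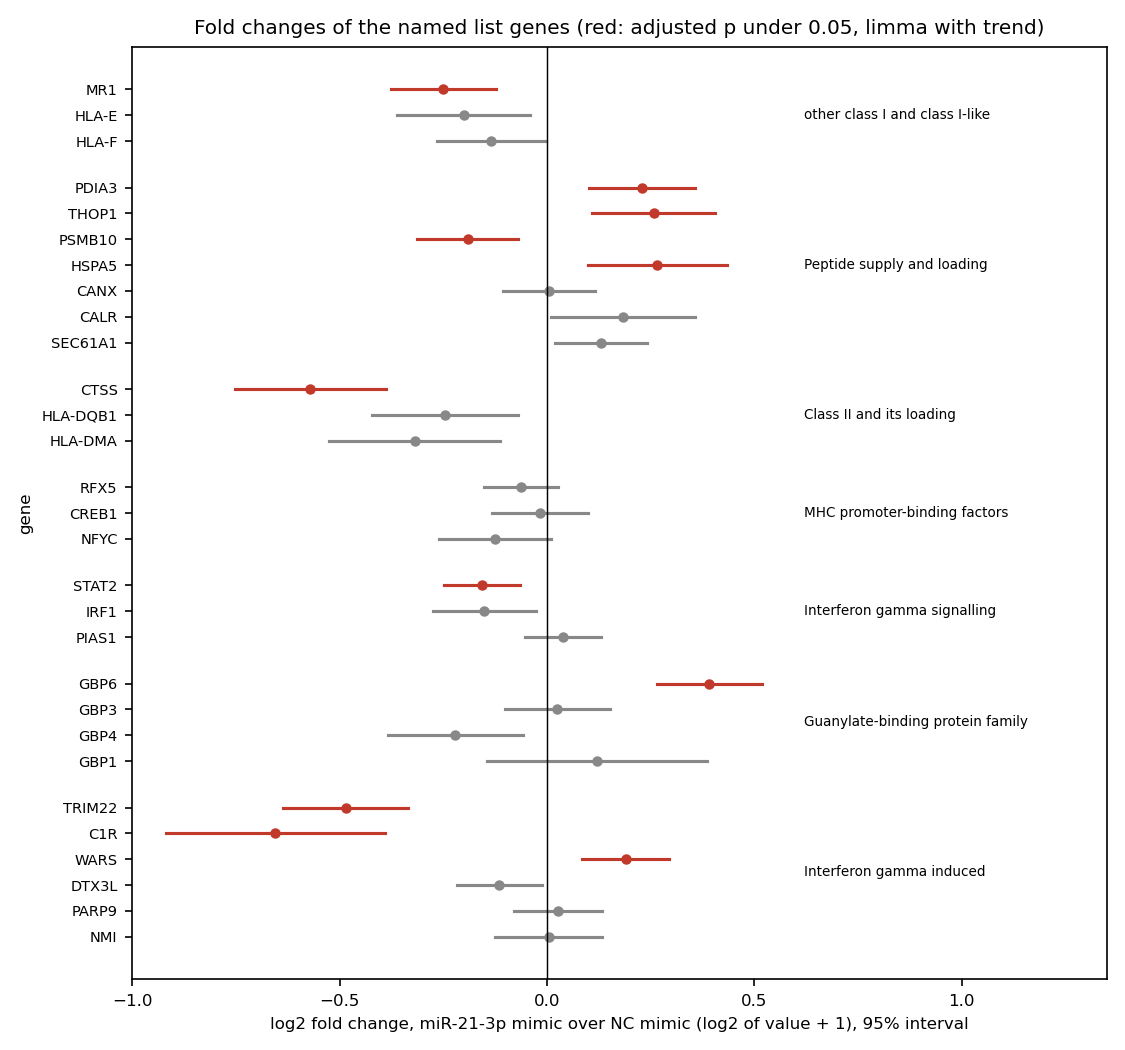
Log2 fold change of miR-21-3p mimic over NC mimic on the log2(value + 1) scale (horizontal axis) with 95% intervals from limma, for the 29 named genes of the 7 lists (vertical axis). Red genes passed the threshold of 0.05 with a trended prior variance, and none did with a constant one; C1R lies lowest at -0.66 and GBP6 highest at 0.39.

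Likeness between genes was measured as the root mean square difference of log2 values, each centred on the gene's own mean, over the 6 libraries. The profile nearest to CIITA was that of C1orf204 (0.0344) and the profile nearest to GBP2 that of C17orf103 (0.027), followed by REM2 (0.0588). TAPBP lay nearest to PLD3 (0.0108) and ARHGEF5 (0.0118), and HLA-B to HADHB (0.0097) and CTSB (0.0155). TAP1 lay nearest to ARSI (0.0103) and GPC1 (0.0185), B2M to DYRK2 (0.0134) and MAPK6 (0.0148), HLA-C to NCKAP1 among genes with a common symbol (0.0243), and NLRC5 to DOM3Z (0.0198) and RTN4IP1 (0.0226). The row named TAP2 lay nearest to ILDR1 (0.0301). These are descriptions of 6 libraries and carry no test.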

How the data were processed

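Polyadenylated RNA of HaCaT cells was measured in 3 NC mimic and 3 miR-21-3p mimic libraries made with a stranded kit. The submitters' processing notes name bcl2fastq 2.18.12, cutadapt 1.15, TopHat2 2.1.1, featureCounts of Subread 1.5.2 and DESeq2; the genome build, annotation release and counting options are not given in the sources used here. The deposited values are a signal, read counts divided by a size factor and written to at most 3 significant digits. In each library 100.0% of values under 50 reads were whole multiples of 1 read within 0.1 read, so reads were recovered for the alternative count tests, to 3 significant digits for abundant genes. Of the 22152 rows, 5278 were 0 in every library.

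The plan assumed raw counts and edgeR. Because the deposited unit was a signal, its stated substitute was used, limma 3.58.1 on log2(value + 1), in R 4.3.3. The plan did not say whether the prior variance should follow the mean; a trend was used, and a constant prior is given as an alternative because it changes most calls. Fold changes on this scale understate those of low genes. Planned refits without a library and with a replicate block named edgeR and were run with both limma and edgeR 4.0.16. Other alternatives were DESeq2 1.42.0, limma-voom, RLE size factors, library totals and no filter. TMM belonged to the planned edgeR test on raw counts. The edgeR fit with TMM on recovered reads of all libraries, pseudocounts of 0.5 and 10 and the constant prior were added after seeing the data. Libraries of a group differed by more than counting noise (chi-square per gene 3.75 to 9.27). The fit was tested on simulated data.

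The 9 genes and the lists were chosen with earlier results of these data known. Named were all 9 genes, from each list the called genes (up to 8, by smallest adjusted p) and up to 3 uncalled genes of highest mean, and the genes nearest in profile. Some genes that this rule takes are not reported here, though list counts and medians include them.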

Additional observations from a re-analysis of the deposited data

How the results depend on the processing

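Of the 38 genes with a tested log2 fold change in the text that belong to the 9 or to the lists, 14 were called, and CIITA was the only one of these called in all 23 alternatives. With a constant prior variance, added after seeing the data, limma called 50 genes in place of 1593 and 1 of the 9 in place of 3; the cause was not tested. The count tests on recovered reads called 1529 to 1652 genes, edgeR with TMM 1637 and DESeq2 1615. Leaving out a library, the count of genes called ranged from 169 to 3001 and that of the 9 from 1 to 4. The count rose without NC mimic replicate 2 and fell without each other library; the cause was not tested.

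With the replicate number as a block, limma called 1193 genes and edgeR 1200, and 2 of the 9. In limma and edgeR the block ended the calls of TAPBP (adjusted p 0.0539 and 0.0568), THOP1 (0.0565 in both), PSMB10 (0.0857 and 0.0754), STAT2 (0.103 and 0.1) and WARS (0.0541 and 0.0612), and of no other gene of the 14. Deviations of same-numbered libraries correlated at -0.077, -0.295 and -0.315, and those of differently numbered libraries at -0.161 to 0.43. The deviations were taken from group means of 3 libraries, which ties them to each other. These values therefore cannot decide whether same-numbered libraries form pairs.

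Signs turned only for genes that were not called; the cause was not tested. For CANX the log2 fold change was -0.0028 with DESeq2 and with edgeR RLE, -0.0001 with voom and with the edgeR block, and -0.0016 with edgeR TMM. For NMI it was -0.0016 with DESeq2 and with edgeR RLE, -0.0003 with voom and with the edgeR block, and -0.0004 with edgeR TMM. Leaving out a library, the range was -0.0492 to 0.0373 for CANX, -0.0415 to 0.0433 for NMI, -0.0038 to 0.1173 for NLRC5, -0.0676 to 0.0125 for CREB1, -0.0381 to 0.0602 for GBP3, -0.0197 to 0.2244 for GBP1 and -0.0228 to 0.0514 for PARP9.

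With 3 libraries a group, low rows such as that named TAP2 allow wide changes in either direction.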
